A study of Mus musculus with 5 samples.

Results

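Expression of 10 SOX transcription factor genes, Sox1, Sox2, Sox4, Sox5, Sox7, Sox9, Sox11, Sox17, Sox18 and Sox21, was examined in GFP+ cells sorted from the lungs of FOXJ1-GFP mouse embryos at E17.5. The members were taken by gene symbol. They have 34 probe sets annotated to them alone, of 34945 that carry the symbol of 1 gene, and make up 10 of 18193 genes. The series holds 1 group of 5 biological replicates on 1 Affymetrix array each, named here replicates 1 to 5. FOXJ1-GFP mice had been mated with the outbred ICR strain, GFP+ embryonic lungs were picked under the microscope, and the GFP+ cells were sorted after trypsin and EDTA dissociation. GFP is driven by a FOXJ1 promoter and so marks cells of the multiciliated lineage. There is no GFP- fraction or other group, so a gene could be compared with a background level and between replicate sorts, but not between cell types. Whether each replicate had its own litter is not given, so a p-value reflects only how these 5 samples varied.

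SOX proteins bind DNA through a high mobility group domain and are sorted into lettered groups by its sequence. Group B holds Sox1, Sox2 and Sox21, group C Sox4 and Sox11, group D Sox5, group E Sox9, and group F Sox7, Sox17 and Sox18. In the developing lung, Sox2 marks the proximal epithelium that forms the conducting airways and Sox9 the distal tips that give rise to the alveoli. Group F genes are known for their roles in endothelial cells, and Sox17 also for its role in endoderm. Sox9, Sox5 and Sox6 act together in cartilage, and Sox10 and Sox2 are used in glia and other derivatives of the neural crest.

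RefSeq promoter sequences of build GRCm38.p6 were matched by symbol for 6 of the 10 genes (Sox1, Sox2, Sox4, Sox5, Sox11 and Sox21). The 250 bases before the start of transcription are shown for the 3 genes of group B, because they differed in their calls, as described below for Sox2 and Sox21 (above background) and Sox1 (not above it). The Sox2 window lies at chr3:34649745-34649994 (+ strand), within the long noncoding gene Sox2ot. The Sox1 window lies at chr8:12395269-12395518 (+ strand), within the noncoding gene Sox1ot, and the Sox21 window at chr14:118237031-118237280 (- strand), where Gm4675 is also annotated. Capitals mark matches, on either strand, to a SOX core (ACAAAG or ACAATG), a forkhead core (TAAACA) or a CCAAT box (CCAAT).
Sox2: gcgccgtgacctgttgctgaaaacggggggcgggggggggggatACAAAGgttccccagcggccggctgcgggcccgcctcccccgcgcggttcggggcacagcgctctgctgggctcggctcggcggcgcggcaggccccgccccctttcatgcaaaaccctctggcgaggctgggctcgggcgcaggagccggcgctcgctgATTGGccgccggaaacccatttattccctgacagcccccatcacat
Sox1: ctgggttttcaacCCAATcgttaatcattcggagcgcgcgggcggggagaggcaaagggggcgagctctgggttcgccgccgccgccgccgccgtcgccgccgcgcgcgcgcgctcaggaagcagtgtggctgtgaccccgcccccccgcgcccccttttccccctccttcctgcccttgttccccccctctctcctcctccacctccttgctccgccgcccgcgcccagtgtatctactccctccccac
Sox21: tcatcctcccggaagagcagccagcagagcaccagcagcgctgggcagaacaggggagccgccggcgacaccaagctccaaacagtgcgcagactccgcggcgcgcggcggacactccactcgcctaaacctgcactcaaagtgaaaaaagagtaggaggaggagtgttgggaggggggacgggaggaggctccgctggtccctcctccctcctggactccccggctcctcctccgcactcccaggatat

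The Sox2 window held a SOX core 206 bases and a CCAAT box 46 bases before the start, the latter on the opposite strand. The Sox1 window held 1 CCAAT box, 237 bases before the start, and the Sox21 window held none of these letters. Over the 6 genes, a SOX core was found for Sox2 and Sox5, a CCAAT box for Sox1, Sox2, Sox4 and Sox11, and a forkhead core for 0 of them. Among all 32851 promoter windows of this length, 25.2% held the SOX core, 33.8% the CCAAT box and 12% the forkhead core. The windows were rich in G and C, at 72.0% for Sox2, 71.2% for Sox1 and 65.2% for Sox21. A match describes the letters of the window and does not show that a factor binds there.

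Of the 10 SOX genes, 8 were above background in the sorted cells (Sox2, Sox21, Sox4, Sox11, Sox9, Sox7, Sox17 and Sox18), and Sox1 and Sox5 were not. A gene was represented by its probe set with the highest mean, and that mean was tested with limma, one-sided, against a background level of 7.83 on the log2 scale at an adjusted p under 0.05. It was set as the 95th percentile over 145 genes picked as a background, 76 of them olfactory, vomeronasal or taste receptors and 69 taken as restricted to other tissues. Of these 145 genes, 6 were themselves called above the level, and their 99th percentile was 10.35, so some of the set gave a clear signal. The same rule called 59.1% of all 18193 genes, and 58.6% exceeded the level on each of the 5 arrays, so the count of 8 is read against these shares and nothing particular to SOX genes is drawn from it. The median level of the 10 members was 9.998 and that of all genes 9.07. The count depends on the level: 10 of 10 passed a level of 5, as did 81.3% of all genes, and 3 of 10 (Sox2, Sox4 and Sox11) the 99th percentile of the background genes, which 30.4% of all genes passed. The study used 5, in arbitrary units, for an average expression in a comparison with E11.5 samples and beside a fold change, which is another quantity than the mean log2 signal of these arrays. Probe sets differ in how strongly they bind their target, so no SOX gene is ranked against another by level.

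**Figure D1:**
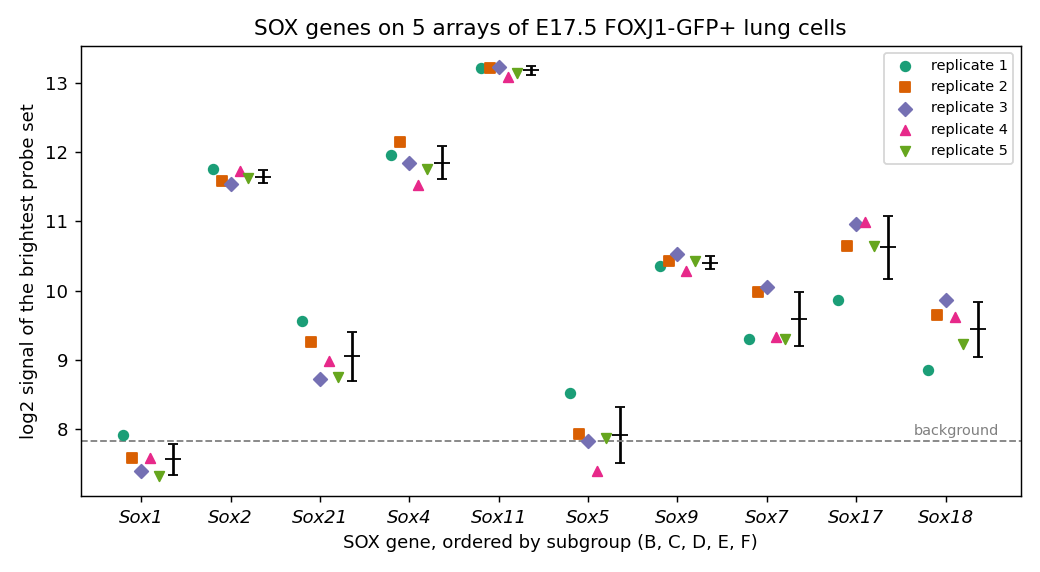
Log2 signal of the brightest probe set of each of the 10 SOX genes (horizontal axis, by group) on the 5 replicate arrays (symbols), with the mean and SD in black and the background level of 7.83 as a dashed line. All 5 arrays lie above the line for 8 genes, while Sox1 lies below it on 4 arrays and Sox5 lies on both sides of it.

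Sox2, the factor of the proximal airway, was measured by 1 probe set. Its values were 11.76, 11.58, 11.53, 11.72 and 11.63 in replicates 1 to 5. All lay above background, with a mean of 11.65 ± 0.09 (SD, n = 5 arrays), 3.81 above the level (adjusted p = 4.0e-10, limma). This SD was low, since 21.7% of the genes above background had a smaller one. The noncoding gene Sox2ot, which spans Sox2 and was looked up after the values of Sox2 had been seen, had a mean of 5.13 ± 0.56 (SD, n = 5 arrays) and was not above background.

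Other genes of the proximal airway were measured beside Sox2. Each list count, here and below, is read beside the 59.1% of all genes that the same rule called. Of 16 listed genes 15 were above background, including the club cell secretoglobins Scgb1a1 at 13.99 ± 0.14 and Scgb3a2 at 14.27 ± 0.07 (SD, n = 5 arrays), with Scgb3a1 at 12.00 ± 0.60 and the club cell cytochrome Cyp2f2 at 12.30 ± 0.09. The exception, the keratin Krt4, was at 7.39 ± 1.72, with 10.28 in replicate 5 and 5.93 to 7.46 in the others. Of 16 ciliated cell genes 15 were above background as well, among them Foxj1 at 12.82 ± 0.08, Myb at 13.77 ± 0.06, Trp73 at 12.00 ± 0.16 and Rfx2 at 11.91 ± 0.20. The exception, a probe set annotated as Spag6, was at 3.67 ± 0.13. Of 10 basal cell genes 5 were above background, Krt15 at 11.11 ± 0.28, Icam1 at 12.31 ± 0.15, Pdpn at 11.61 ± 0.16, Snai2 at 9.94 ± 0.30 and Dapl1 at 9.47 ± 0.39. Pdpn is also on the list of alveolar type 1 genes used below. The defining basal cell gene Trp63 (7.17 ± 0.56), Krt5 (6.79 ± 0.22), Krt14 (5.25 ± 0.17), Ngfr (6.36 ± 0.27) and Aqp3 (5.51 ± 0.25) were not above background.

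Sox1, a group B gene close to Sox2 that the study took up as a candidate factor, was not above background by either of its probe sets. The brighter of them had values of 7.91, 7.59, 7.40, 7.59 and 7.33 in replicates 1 to 5. Replicate 1 alone exceeded the level, and the mean of 7.56 ± 0.23 (SD, n = 5 arrays) lay below it (-0.27, adjusted p = 1, limma). The other probe set had a mean of 5.05 ± 0.13 and lay below the level on all 5 arrays. Sox1 therefore sat within the range of the brighter background genes, and its call depended on which genes set the level. Over probe sets without a suffix, where the level fell to 6.97, Sox1 was above it by 0.59 (adjusted p = 0.00042, limma). With the receptor genes alone, where the level was 5.44, it was above by 2.12 (adjusted p = 6.8e-08, limma), and 77.3% of all genes were called. With the tissue-restricted genes alone it was below (-1.53).

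Sox21, a group B repressor, had a bright and a dimmer probe set. The bright one had values of 9.55, 9.26, 8.73, 8.98 and 8.75 in replicates 1 to 5, with a mean of 9.05 ± 0.35 (SD, n = 5 arrays), 1.22 above the level (adjusted p = 3.8e-05, limma). The other had values of 7.80, 7.58, 6.78, 7.11 and 6.95, a mean of 7.24 ± 0.43, and was not above background. In both, replicate 1 was highest, replicate 2 next, and replicate 3 lowest. Sox21 lost its call when the tissue-restricted genes alone set the background (-0.04 from that level).

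Sox2 and Sox21, the group B genes above background, were highest in replicate 1, by 0.11 and 0.50 over their own means, and lowest in replicate 3. The whole range over the arrays was 0.22 for Sox2, a ratio of 1.17, and 0.83 for Sox21, a ratio of 1.78. The brighter Sox1 probe set was highest in replicate 1 and the other in replicate 5 (5.23), and with neither above background no order of arrays is read for Sox1. The mean deviations of the proximal airway list were 0.04, 0.10, -0.24, 0.14 and -0.05 in replicates 1 to 5. They were lowest in replicate 3, as for Sox2 and Sox21, but highest in replicate 4. The mean deviation of the ciliated list was 0.06 in replicate 1, with a range of 0.12. In the ciliated list Dnah5 stood out at 10.85 in replicate 1 (mean 10.04), and other genes lay on both sides of their own means there. The part of these lists in the spread of Sox21 was not tested.

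Sox9, the factor of the distal tips, was above background by 1 of its 3 probe sets, and these disagreed. The brightest had values of 10.35, 10.43, 10.53, 10.28 and 10.43 in replicates 1 to 5, a mean of 10.40 ± 0.10 (SD, n = 5 arrays), 2.57 above the level (adjusted p = 3.1e-09, limma). These arrays differed little, with a range of 0.26. The second probe set had values of 8.37, 8.47, 7.61, 6.88 and 7.43, a mean of 7.75 ± 0.67, and was not above background. Its values in replicates 1 and 2 exceeded the level and the others did not, a pattern that the brightest probe set did not have. The third lay between 4.18 and 4.65. With the 3 probe sets averaged, Sox9 lay 0.19 over the background level set in the same way and was not called (adjusted p = 0.10, limma). The call for Sox9 therefore rests on 1 probe set.

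Of 19 listed genes of distal tip progenitors 14 were above background (73.7%, beside 59.1% of all genes). Among them were Id2 at 11.83 ± 0.44 and Etv5 at 10.37 ± 0.27 (SD, n = 5 arrays), a target of FGF signalling, while Etv4 at 5.16 ± 0.23, Mycn at 8.02 ± 0.29, Lama1 at 6.41 ± 0.12, Cdca7 at 7.28 ± 0.14 and Lin28b at 2.82 ± 0.15 were not above background. All 13 measured genes of alveolar type 2 cells were, with the surfactant genes Sftpc at 14.06 ± 0.27, Sftpa1 at 12.14 ± 0.80, Sftpb at 11.14 ± 0.58 and Sftpd at 10.81 ± 0.57. The mean deviation of the type 2 list ran from -0.62 in replicate 1 to 0.61 in replicate 5, a range of 1.23, whereas Sox9 was at -0.05 in replicate 1 and 0.02 in replicate 5. That of the distal tip list was -0.03, 0.10, -0.025, -0.13 and 0.09 in replicates 1 to 5, a range of 0.23. Both this list and Sox9 were lowest in replicate 4, but the list was highest in replicate 2 and Sox9 in replicate 3. In bulk samples, fewer cells of a type and less RNA per cell cannot be told apart.

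Genes of cartilage, the other tissue of the thorax that uses Sox9, were mostly low. Of 15 listed chondrocyte genes 2 were above background, Hapln1 at 12.12 ± 0.04 and Col9a1 at 8.59 ± 0.27 (SD, n = 5 arrays), and the defining genes Col2a1 at 6.27 ± 0.50 and Acan at 5.53 ± 0.20 were not, nor was Col9a2 at 5.07 ± 0.19 or Col9a3 at 6.80.

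Sox5, the group D partner of Sox9 in cartilage, has 7 probe sets, none of them above background. The brightest had values of 8.52, 7.93, 7.83, 7.39 and 7.87 in replicates 1 to 5. They fell on both sides of the level, with 3 arrays above it, and the mean of 7.91 ± 0.40 (SD, n = 5 arrays) was 0.08 over it (adjusted p = 0.70, limma). Without replicate 1, the mean lay below the level (-0.05). The other 6 probe sets had means from 4.02 to 7.32. Sox6, another group D gene and no member of the set above, was above background at 9.04 ± 0.32 (adjusted p = 2.3e-05, limma).

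**Figure D2:**
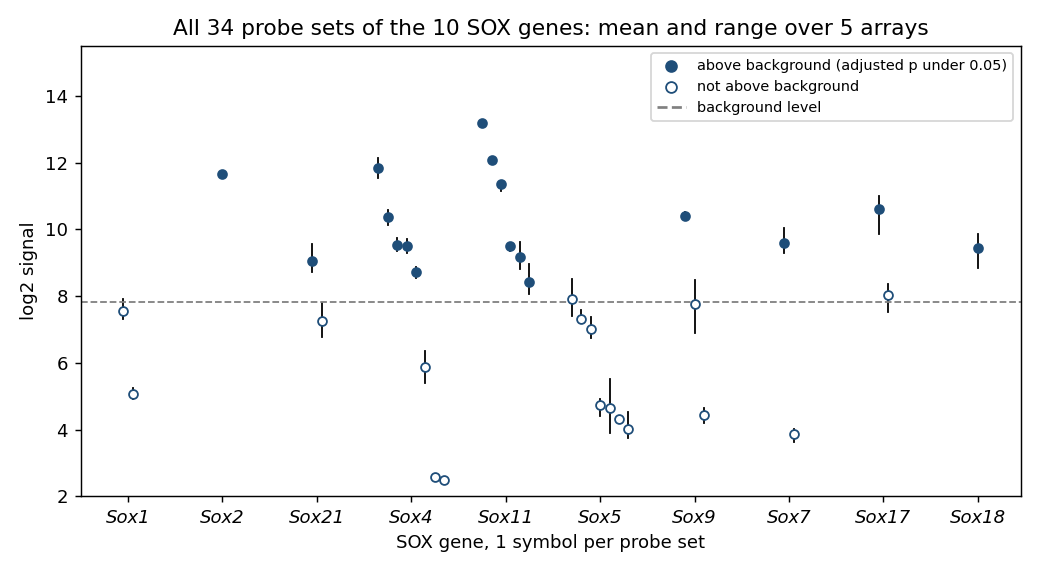
Mean (circle) and range over the 5 arrays (line) of the log2 signal of all 34 probe sets of the 10 SOX genes. Filled circles are the 17 probe sets above the background level (dashed line) by limma, and 5 genes (Sox4, Sox7, Sox9, Sox17 and Sox21) have filled and open circles.

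Over all 34 probe sets 17 were above background, against 48.8% of all probe sets with 1 gene and 41.5% of all probe sets tested. Every probe set was called for 3 genes (Sox2, Sox11 and Sox18), of which Sox2 and Sox18 have 1 each. Some were called and some were not for 5 genes, and none was called for Sox1 and Sox5. Group C, whose members are widely expressed in embryonic tissues, had the most called probe sets. Sox11 was called by 6 of 6 and Sox4 by 5 of 8.

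By the brightest probe set of each gene, Sox11 had the smallest SD of the 10. This probe set had 13.22, 13.21, 13.23, 13.09 and 13.15 in replicates 1 to 5, a mean of 13.18 ± 0.06 (SD, n = 5 arrays), 5.35 above the level (adjusted p = 1.1e-10, limma). Of the genes above background, 6.92% had a smaller SD. Its 2 dimmest probe sets were less steady. One of them had 8.96, 8.86, 8.06, 8.08 and 8.12 and the other 9.63, 9.58, 8.81, 8.83 and 9.02. In each of these, replicates 1 and 2 lay above the other three, as in the second probe set of Sox9.

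By its brightest probe set, Sox4 was highest in replicate 2 and lowest in replicate 4. This probe set had values of 11.96, 12.15, 11.85, 11.53 and 11.76 in replicates 1 to 5, a mean of 11.85 ± 0.23 (SD, n = 5 arrays), 4.02 above the level (adjusted p = 2.4e-09, limma). The next probe set of Sox4 had 10.12, 10.58, 10.49, 10.30 and 10.32, where replicate 1 and not replicate 4 was lowest. Another called probe set had 8.58, 8.53, 8.86, 8.85 and 8.76, lowest in replicate 2. A further one had 9.38, 9.35, 9.73, 9.64 and 9.62, again lowest in replicate 2. The remaining called one had 9.28, 9.35, 9.65, 9.59 and 9.70, lowest in replicate 1. Probe sets of Sox4 therefore did not share an order of arrays. Its 3 probe sets below background had means of 5.88, 2.59 and 2.50.

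The difference between the probe sets at the 3' and 5' ends of control transcripts, a sign of RNA quality, also varied between arrays. For Gapdh it was 1.02, 1.03, 1.43, 1.25 and 1.14 on the log2 scale in replicates 1 to 5, lowest in replicates 1 and 2. For beta-actin it was 0.61, 0.51, 0.68, 0.72 and 0.67, again lowest in these replicates. Single Sox9 and Sox11 probe sets were higher in replicates 1 and 2, as were both probe sets of Sox21 and some others not above background. Some called probe sets of Sox4 were instead lowest in these replicates. The part of RNA quality in these values was not tested.

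The 3 group F genes were above background and varied between the sorts. Sox18 was measured by 1 probe set, with values of 8.85, 9.65, 9.86, 9.62 and 9.22 in replicates 1 to 5. The mean was 9.44 ± 0.40 (SD, n = 5 arrays), 1.61 above the level (adjusted p = 1.2e-05, limma). Sox18 was lowest in replicate 1 and highest in replicate 3, and its range of 1.01 is a ratio of 2.01. It missed the threshold against the tissue-restricted genes alone (0.35 over that level, adjusted p = 0.077, limma).

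Sox17 had a probe set with values of 9.87, 10.64, 10.97, 10.99 and 10.65 in replicates 1 to 5 and a mean of 10.62 ± 0.45 (SD, n = 5 arrays), 2.79 above the level (adjusted p = 6.6e-07, limma). Replicate 1 stood lowest. This probe set carries the suffix that Affymetrix gives where some probes may also match other transcripts. The other probe set had 7.53, 8.37, 8.27, 8.08 and 7.99 and was not above background (8.05 ± 0.33, adjusted p = 0.14, limma), but it too was lowest in replicate 1.

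Sox7 had values of 9.30, 9.98, 10.05, 9.32 and 9.31 in replicates 1 to 5 in its bright probe set. Replicates 2 and 3 lay well above the other three, and the mean was 9.59 ± 0.39 (SD, n = 5 arrays), 1.76 above the level (adjusted p = 5.8e-06, limma). Its other probe set was at 3.88 ± 0.16. With both averaged, Sox7 lay below the background level set in the same way (-0.60).

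Endothelial genes were also lowest in replicate 1. All 17 listed were above background, as were 59.1% of all genes. Their mean deviation was -0.54, 0.18, 0.41, 0.09 and -0.13 in replicates 1 to 5 for the 17 endothelial genes, lowest in replicate 1 and highest in replicate 3 as for Sox18. Pecam1, an adhesion molecule of endothelial junctions, had 10.45, 11.22, 11.39, 10.56 and 10.55, with replicates 2 and 3 standing over the others as for Sox7. Cdh5, which encodes VE-cadherin, had 10.22, 11.07, 11.02, 10.59 and 10.48, and was lowest in replicate 1 too. Kdr was at 11.20 ± 0.27 and Tek, a receptor of angiopoietins, at 11.63 ± 0.28 (SD, n = 5 arrays). Of 8 measured genes of lymphatic endothelium, where Sox18 acts upstream of Prox1, 6 were above background, with Prox1 at 9.50 ± 0.32, Lyve1 at 11.30 ± 0.33, Flt4 at 10.07 ± 0.34 and Mmrn1 at 8.96 ± 0.49, but not Reln at 6.69 ± 0.36 or Stab2 at 7.88 ± 0.36. The lymphatic list did not have its lowest value in replicate 1, with mean deviations of -0.05, 0.13, 0.33, -0.19 and -0.22. Prox1 had 9.75, 9.71, 9.74, 9.16 and 9.15 in replicates 1 to 5. It was about as high in replicate 1, where Sox18 was lowest, as in replicate 3, where Sox18 was highest.

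Other lists were lowest in replicate 1 as well. Their mean deviations there were -0.62 for alveolar type 2 genes, -0.51 for white blood cell genes, -0.29 for mesenchymal genes and -0.20 for alveolar type 1 genes, and the only red blood cell gene above background was at -0.49. The mesenchymal list was highest in replicate 3 (0.36), as were Sox18 and the endothelial list. The low values of Sox17 and Sox18 in replicate 1 were therefore shared by lists of several cell types. Sox7 was about as low in replicates 4 (-0.27) and 5 (-0.29) as in replicate 1 (-0.29). The part of endothelial or other cells in the levels of Sox7, Sox17 and Sox18 was not tested.

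**Figure D3:**
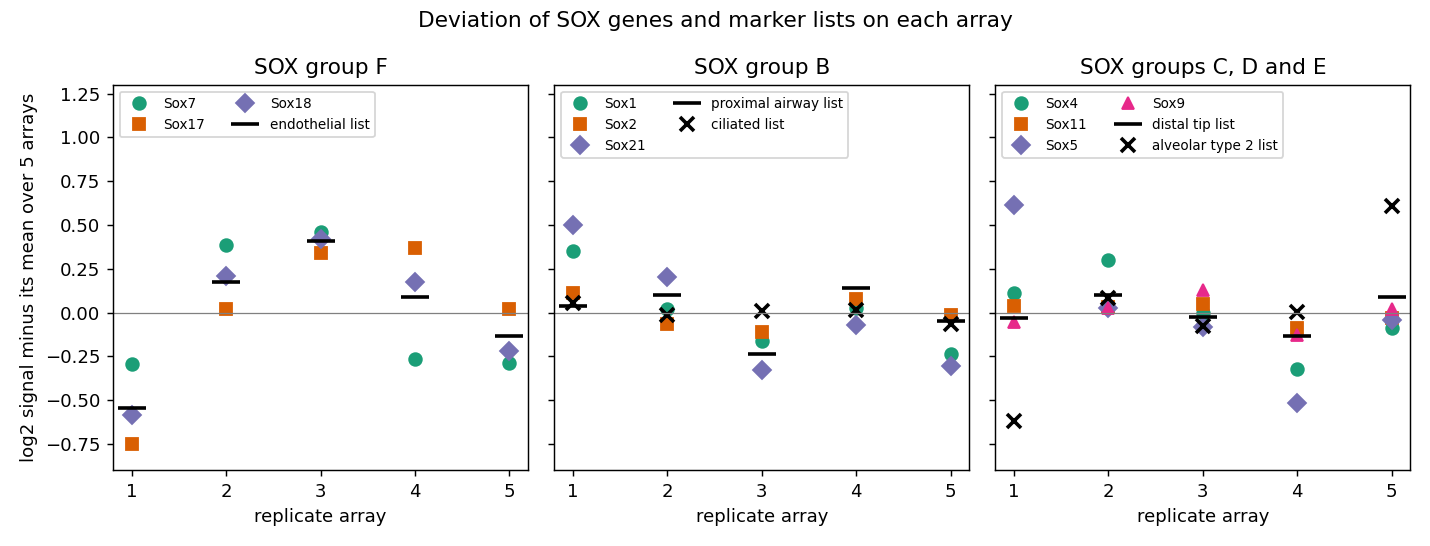
Deviation of each SOX gene from its mean over the 5 arrays, in log2 units (vertical axis), by replicate array (horizontal axis), in 3 panels by SOX group; black marks are the mean deviations of marker lists over their genes above background. In replicate 1 the 3 group F genes lie between -0.75 and -0.29 with the endothelial list at -0.54, while Sox2 lies at 0.11 and Sox21 at 0.50. Sox1 and Sox5 are drawn although they were not above background.

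The spread between sorts differed between the brightest probe sets of the SOX genes. The SD was 0.09 for Sox2, 0.10 for Sox9 and 0.06 for Sox11, below the median of 0.15 over all genes above background. It was 0.39 for Sox7, 0.40 for Sox18, 0.45 for Sox17 and 0.40 for Sox5, which was itself not above background. For these 4, 95.9% to 98.0% of the genes above background had a smaller SD. That of Sox21 was 0.35, larger than in 94.0% of these genes. Other probe sets of Sox9 and Sox11 varied as much, with an SD of 0.67 for the second of Sox9 and 0.40 and 0.46 for the dimmest of Sox11, so the small SDs hold for the brightest probe sets and not for the genes. This is a description, with no test.

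The genes whose deviations over the 5 arrays lay closest to those of 4 members were found by the smallest root mean square difference, among genes above background with an SD of at least 0.5 times that of the member. For Sox18 the closest of 3338 genes was Cldn5, a claudin of endothelial tight junctions, at a difference of 0.03 log2 units, followed by Septin4 and Clec1a at 0.04 each. For Sox17 they were Rcsd1 (0.05), Mgll (0.06) and Sipa1 (0.06) among 2536 genes. For Sox2, Fam120aos, Oxct1 and Ccnb2 lay at 0.01 each, and for Sox9, Snx12 (0.02), Ncam1 (0.02) and Mxd1 (0.03), where the members' own ranges are near 0.2. With 5 arrays and this many genes some lie close to any profile.

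Of the 10 SOX family genes outside the set, 3 were above background, Sox6, Sox12 at 9.67 ± 0.09 and Sox13 at 9.84 ± 0.20 (SD, n = 5 arrays). The share over all genes was 59.1%. Sox12 belongs to group C with Sox4 and Sox11, and Sox13 to group D with Sox5 and Sox6. Those not above background were Sox3 of group B at 5.34 ± 0.07, Sox8 at 3.82 ± 0.24 and Sox10 at 6.05 ± 0.22 of group E, Sox14 at 4.77 ± 0.17, Sox15 at 7.55 ± 0.25, Sox30 at 4.25 ± 0.61 and Sry at 7.59 ± 0.19. In group E, Sox9 was thus called and its close relatives Sox8 and Sox10 were not. Sox10 marks the neural crest lineage, and of 12 measured genes of that lineage 4 were above background, S100b at 8.15 ± 0.24, Erbb3 at 12.43 ± 0.09, Ret at 9.36 ± 0.15 and Ednrb at 11.51 ± 0.24. Foxd3 at 4.17 ± 0.14, Phox2a at 5.00 ± 0.46 and Cdh19 at 3.48 were not.

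Of 22 measured genes of proteins that work with SOX factors, 18 were above background (81.8%, beside 59.1% of all genes). They include Ctnnb1, which encodes beta-catenin, at 14.00 ± 0.07 (SD, n = 5 arrays) and the TCF genes Tcf7l1 at 9.80 ± 0.23, Tcf7l2 at 10.58 ± 0.11 and Lef1 at 8.68 ± 0.27. The 4 others were all POU factors, the class that pairs with group B proteins in stem cells and neural progenitors. A further listed POU gene, Pou2f1, was not measured, nor was Tcf7, so the 4 do not stand for the whole class. Pou5f1 was at 5.96 ± 0.23, Pou2f2 at 5.07 ± 0.13, Pou3f1 at 5.92 ± 0.20 and Pou3f2 at 7.17 ± 0.41. Of the remaining lists, 8 of 12 measured neuroendocrine genes, 13 of 13 alveolar type 1 genes, 14 of 20 mesenchymal genes, 10 of 16 white blood cell genes and 1 of 9 measured red blood cell genes were above background. With 59.1% of all genes called, a count near that share does not show that the sort held such cells.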

How the data were processed

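Microarray measurements of 5 samples were analysed, all of 1 group, with replicate numbers taken from their labels. The authors amplified and biotin-labelled the RNA, hybridised Affymetrix mouse arrays and used Bioconductor. The values deposited by the authors, 1 for each probe set on each array, are log2 signals that had been normalized across the arrays. Their scale was inferred from their range, and the normalization method is not given in these sources. Probe sets were named through the platform annotation, with symbols checked by Entrez identifier against GRCm38.p6 (99.42% found, 0 changed). After 64 control probe sets were left out, an intercept per probe set was fitted with limma 3.58.1 in R 4.3.3 over all 45037 probe sets, with Benjamini-Hochberg adjustment. Other steps used Python 3.11.15, numpy 2.4.6 and pandas 2.3.3. Pearson's r between arrays, across probe sets, was 0.987 to 0.994. The fit was tested on simulated data. Precision is limited by there being 5 arrays. The members and lists were chosen with earlier results of these data known. Named are all SOX genes, the first 4 members of a list and up to 5 members that go against most of it, and marker genes set beside single members.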

Additional observations from a re-analysis of the deposited data

Results flagged for a closer look

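Among the 34 probe sets of the SOX genes, 1 had an array far from the others. The third brightest probe set of Sox11 had 11.38, 11.39, 11.44, 11.38 and 11.16 in replicates 1 to 5, and the gap of replicate 5 to its neighbour was 0.776 of the whole range, above the value of 0.71 used for 5 samples. Chance marks about 1 in 20 such groups. Sox11 was above background by this probe set, and its 2 brighter ones showed no such gap.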

How the results depend on the processing

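The count of 8 SOX genes above background was the same under quantile normalization, median centring, a variance trend, a call that required 5 of 5 arrays over the level, and without any 1 replicate (8 each time). It was 6 with probe sets averaged (54.7% of all genes called) and 6 when tissue-restricted genes alone set the background (46.9%), 9 of 9 over probe sets without a suffix (61.8%; Sox17 has none), and 10 with the receptor genes alone (77.3%) or the cut-off of 5 (81.3%). Against the 99th percentile of background genes, 3 genes (30.4% of all genes) and 5 of the 34 probe sets passed. At that level Sox1 (-2.79), Sox18 (-0.91), Sox21 (-1.30), Sox5 (-2.44) and Sox7 (-0.76) lay below it. Sox17 (0.28 over it, adjusted p = 0.34, limma) and Sox9 (0.05, adjusted p = 1, limma) lost their calls. Against tissue-restricted genes alone, Sox1 (-1.53), Sox21 (-0.042) and Sox5 (-1.19) lay below the level. With probe sets averaged, Sox1 (-1.03), Sox5 (-1.63) and Sox7 (-0.60) did. Sox1 lay above the level over probe sets without a suffix (0.59), with the receptor genes alone (2.12) and with the cut-off of 5 (2.56). Sox5 was called under the same 3 settings. Leaving out each replicate moved Sox5 between -0.052 (without replicate 1) and 0.23 from the level. The other causes were not tested. No paired analysis was possible because the series holds 1 group.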
